A study of Mus musculus with 6 samples.

Results

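The genes described are 9 interferon-inducible GTPases of mouse macrophages, 5 of the immunity-related GTPase (IRG) family (Irgm1, Irgm2, Igtp, Ifi47 and Iigp1) and 4 guanylate-binding proteins (Gbp2, Gbp3, Gbp5 and Gbp7). They were taken by gene symbol from a table of 24054 genes, and all 9 were found there. All 9 passed the filter on low counts that left 12689 genes for testing. The filter could keep a gene on the strength of a single group.

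Macrophages grown from mouse bone marrow gave 6 RNA libraries. They were 2 of Kindlin3-integrin mutant cells given oxidised low-density lipoprotein (oxLDL), 2 of untreated mutant cells, 1 of wild-type cells given oxLDL and 1 of untreated wild-type cells. Mutant and wild-type mice were on the C57BL/6 background, all marrow had 7 days in L929-conditioned medium, and oxLDL was present at 50 µg/ml for 24 hours. The mutant samples carry KI in their titles, and the kind of mutation and the age of the mice are not given. Nothing states that replicates came from separate mice or cultures, so every p-value measures only the spread between these libraries, which may be technical.

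Both families are GTPases that macrophages make in quantity once interferon is sensed. Interferon-gamma acts on such genes at gamma-activated sites (GAS), and type I interferons act through a complex that includes Stat2 and Irf9 at interferon-stimulated response elements (ISRE). The guanylate-binding proteins are large, dynamin-related enzymes that assemble on pathogen membranes and on released bacterial lipopolysaccharide. Among the IRG proteins, the Irgm regulators sit on the cell's own membranes and restrain the effector IRG proteins, which load onto pathogen vacuoles.

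Start regions are shown for these genes, which were taken by symbol as interferon-inducible, and they were searched for 2 motifs by which interferons are known to act. The sequences come from RefSeq on build GRCm38.p6, which may not be the build behind the counts, and RefSeq windows of 250 bases before to 50 bases after the start were matched for 8 of the 9 genes. Each stretch runs 5′ to 3′ on the gene's strand, with matches on either strand in capitals. The motifs searched were TTCNNNGAA (GAS) and an ISRE core of GAAA, any 2 bases and GAAA again, which reads as TTTC, any 2 bases and TTTC where it lies on the opposite strand. Irgm1 is on chr11:48871421-48871520 (minus strand), Irgm2 on chr11:58214853-58214952 (plus strand) and Igtp on chr11:58199456-58199555 (plus strand). Gbp3 is on chr3:142559944-142560043, Gbp5 on chr3:142496709-142496808 and Gbp7 on chr3:142530223-142530322, all on the plus strand. Each printed stretch is 100 bases of a window, placed to hold an ISRE core match. Both GAS matches of Gbp5, which begin at -245 and -52 from the start, lie outside its stretch. Gbp2, which has an ISRE core match, and Ifi47, which has no match, are not printed.
Irgm1: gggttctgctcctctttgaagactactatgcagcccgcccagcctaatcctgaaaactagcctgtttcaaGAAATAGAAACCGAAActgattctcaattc
Irgm2: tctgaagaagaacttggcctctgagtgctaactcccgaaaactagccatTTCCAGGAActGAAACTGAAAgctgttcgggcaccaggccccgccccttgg
Igtp: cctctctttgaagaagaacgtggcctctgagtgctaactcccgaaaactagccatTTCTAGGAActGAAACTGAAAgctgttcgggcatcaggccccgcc
Gbp3: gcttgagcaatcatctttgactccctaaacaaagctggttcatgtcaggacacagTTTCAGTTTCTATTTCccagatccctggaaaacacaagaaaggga
Gbp5: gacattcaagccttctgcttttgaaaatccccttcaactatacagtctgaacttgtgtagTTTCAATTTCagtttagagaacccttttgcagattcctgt
Gbp7: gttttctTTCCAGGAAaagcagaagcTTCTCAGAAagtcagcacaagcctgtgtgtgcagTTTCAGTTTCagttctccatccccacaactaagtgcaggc

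An ISRE core match lay in the windows of 7 of the 8 genes, all but Ifi47, while 3.43% of all 32817 RefSeq mouse windows held such a match. A GAS match lay in 4 of the 8 (Irgm2, Igtp, Gbp5 and Gbp7), against 8.29% of all windows. The same 4 genes held both, against 0.451% of all windows. No GAS match overlapped an ISRE core match, whereas the 2 ISRE core matches of Irgm1 overlapped each other, as did the 2 of Gbp3. In Igtp and Irgm2 the GAS match was followed after 2 bases by the ISRE core, and their windows shared an identical run of 61 bases. That arrangement was picked out after the sequences were read. It occurred in 5 of the 32817 windows (0.0152%), which included those of Irgm2, Igtp and the related IRG genes Tgtp1 and Tgtp2. A match describes letters only, and the absence of one in Ifi47 says only that these letters are not in this window. Gene counts take a match in any window of a gene, and Gbp3 has 2 windows, while the shares are per window. The genes were taken as interferon-inducible whatever oxLDL did, and a link of the matches to the fall with oxLDL was not tested.

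**Figure D1:**
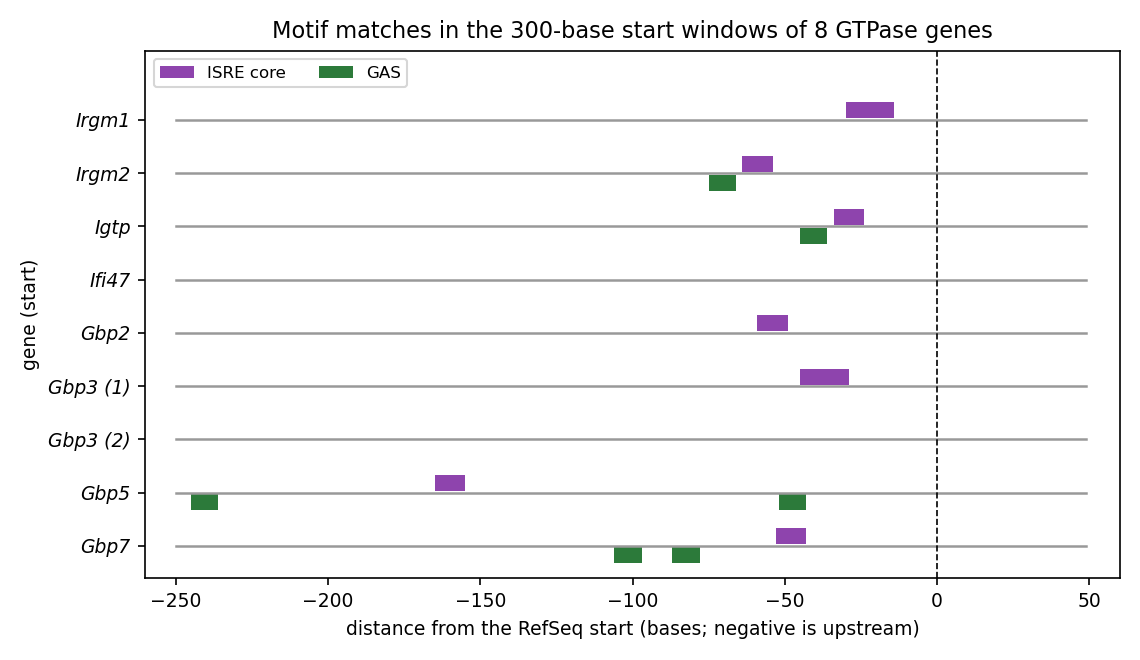
Matches to GAS (green) and the ISRE core (purple) in the RefSeq start windows of 8 of the 9 genes, by distance from the start in bases, with a line for each window and both windows of Gbp3. Ifi47 and the second Gbp3 window hold no match, and Irgm2, Igtp, Gbp5 and Gbp7 hold both kinds.

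In the RefSeq gene order Igtp and Irgm2 are neighbours on chromosome 11, where Irgm1 and Ifi47 also lie. Gbp5, Gbp7 and Gbp3 follow each other on chromosome 3, with Gbp2b between Gbp3 and Gbp2, and Iigp1 lies on chromosome 18. Neighbouring genes of this kind can share reads. Of the 75-base stretches of Gbp7 transcripts, 11.3% also occur in other genes, mostly in the model Gm43802, so its counts are uncertain. The share was 7.80% for Igtp and 4.78% for Irgm2, which share stretches with each other, and at most 2.06% for the rest.

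Library totals ran from 11281692 to 24273551 counts. Macrophage marker genes were abundant in all 6 libraries. Their summed level was 9108 to 25845 CPM, the counts scaled to 1000000 per library, over the 8 of 9 markers analysed. Of 10 lymphocyte markers 6 were at 0 throughout, Cd3e and Cd3g among them. Cd4, at 4.72 to 8.40 CPM, and Cd8a, at 0.795 to 1.48 CPM, were counted in all 6 libraries. Fermt3, the gene of Kindlin-3, measured 146 and 153 CPM in mutant oxLDL libraries, 239 and 248 CPM in untreated mutant libraries, 188 CPM in wild type oxLDL and 404 CPM in untreated wild type.

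oxLDL was accompanied by lower levels of every one of the 9 GTPase genes in both genotypes. Their summed level was 125, 125 and 126 CPM in the 3 oxLDL libraries, against 502, 439 and 639 CPM in the 3 untreated ones. In the mutant, 9 of 9 fell (edgeR quasi-likelihood test with Benjamini-Hochberg adjustment at a false discovery rate under 0.05), where 35.6% of all tested genes were called, 19.1% lower and 16.5% higher, and the members' median log2 fold change was -2.32 beside 0.01 for all tested genes. Across both genotypes 9 of 9 fell as well, where 40.5% of all tested genes were called, 21.4% of them lower and 19.1% higher as shares of all genes tested, with a median of -2.38 beside 0.01. All 3 oxLDL libraries lay below all 3 untreated libraries for each of the 9 genes, a pattern that 22.8% of tested genes showed, while 25% showed the opposite one. The 2 comparisons share the mutant libraries and are not independent. Iigp1 and Gbp5, with 1 to 8 counts in oxLDL libraries, passed the filter through their untreated levels. For them a fall was the only direction open, so their calls add little to the count of 9. Over all genes, called ones in the mutant numbered 4515, and 2626 without mutant untreated replicate 2. In RNA from whole cultures, fewer cells of a type and less RNA per cell cannot be told apart.

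**Figure D2:**
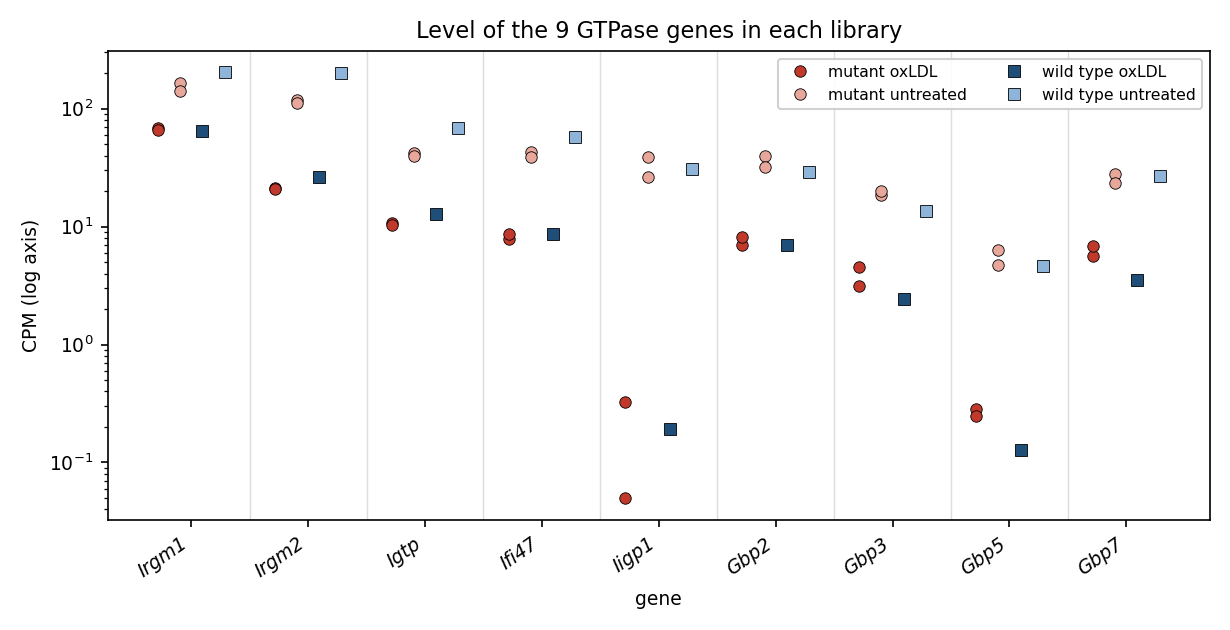
Level of each of the 9 genes in CPM (log axis), with a point for each of the 6 libraries, coloured by genotype and treatment. Every oxLDL point lies below every untreated point of the same gene, and the gap is widest for Iigp1 and Gbp5.

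The regulators Irgm1, Irgm2 and Igtp all fell, by log2 fold changes between -1.21 and -2.47 in the mutant. Irgm1, a regulator found on Golgi and lysosomal membranes and linked to autophagy, measured 68.7 and 65.7 CPM in mutant oxLDL libraries, against 166 and 142 CPM in untreated mutant libraries. In wild type it measured 65.1 CPM with oxLDL and 205 CPM without. The oxLDL libraries lay close together and the untreated ones ranged more widely, without overlap. On the log2 scale Irgm1 fell by -1.21 ± 0.11 in the mutant (SE, n = 2 each; edgeR adjusted p = 0.00103) and by -1.36 ± 0.12 across genotypes (adjusted p = 0.000479), the smallest change of the 9 genes in both comparisons.

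Irgm2, a regulator of the same subgroup, measured 21.2 and 20.7 CPM in mutant oxLDL libraries, against 119 and 112 CPM in untreated mutant libraries. In wild type it measured 26.2 CPM with oxLDL and 203 CPM without. Both wild-type libraries stood above the mutant libraries of the same treatment. The fall with oxLDL was 5.56-fold in the mutant, or -2.47 ± 0.10 on the log2 scale (SE, n = 2 each; edgeR adjusted p = 0.000168), and -2.63 ± 0.12 across genotypes (adjusted p = 7.72e-05).

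Igtp, also called Irgm3 and known from the endoplasmic reticulum and lipid droplets, measured 10.7 and 10.4 CPM in mutant oxLDL libraries, against 42.1 and 40.1 CPM in untreated mutant libraries. It measured 12.7 CPM in wild type oxLDL and 68.7 CPM in untreated wild type. Here too the wild-type library was the higher within each treatment. Igtp fell 3.93-fold in the mutant, or -1.97 ± 0.11 on the log2 scale (SE, n = 2 each; edgeR adjusted p = 0.000315), and by -2.13 ± 0.12 across genotypes (adjusted p = 0.000124).

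Of the IRG effectors, Iigp1 (Irga6), which oligomerises on the Toxoplasma vacuole, changed most. Its level was 0.326 and 0.0497 CPM in mutant oxLDL libraries, against 38.8 and 26.5 CPM in untreated mutant libraries. Wild type measured 0.192 CPM with oxLDL and 31.0 CPM without. The oxLDL levels rest on 8 and 1 counts in the mutant and 3 counts in wild type, so they are near the limit of detection, whereas the untreated libraries held 376 to 606 expected counts. Its log2 difference was -7.31 ± 0.47 in the mutant (SE, n = 2 each; edgeR adjusted p = 0.000421) and -7.31 ± 0.38 across genotypes (adjusted p = 0.000102). Counts pooled over the mutant libraries gave a fold of 159 (95% exact interval 83.2 to 348, counting error only). Without mutant oxLDL replicate 1 the mutant value was -9.16, and without replicate 2 it was -6.62; across genotypes these were -8.07 and -6.84.

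Ifi47 (Irgd), the other effector, measured 7.87 and 8.64 CPM in mutant oxLDL libraries, against 42.6 and 38.9 CPM in untreated mutant libraries. It measured 8.71 CPM in wild type oxLDL and 58.1 CPM in untreated wild type. The 3 oxLDL libraries lay within a CPM of each other. Ifi47 fell by -2.32 ± 0.12 on the log2 scale in the mutant (SE, n = 2 each; edgeR adjusted p = 0.000313) and -2.46 ± 0.13 across genotypes (adjusted p = 0.000104).

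The guanylate-binding proteins fell by log2 fold changes between -2.07 and -4.35 in the mutant. Gbp2, which is geranylgeranylated and reaches the Toxoplasma vacuole, measured 7.01 and 8.19 CPM in mutant oxLDL libraries, against 40.0 and 32.0 CPM in untreated mutant libraries. Wild type measured 7.04 CPM with oxLDL and 28.8 CPM without. Genotypes overlapped with oxLDL, and both untreated mutant libraries were the higher. On the log2 scale the fall was -2.26 ± 0.17 in the mutant (SE, n = 2 each; edgeR adjusted p = 0.000616) and -2.18 ± 0.14 across genotypes (adjusted p = 0.000160).

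Gbp3, of the same chromosome 3 cluster, measured 3.14 and 4.57 CPM in mutant oxLDL libraries, against 18.5 and 20.0 CPM in untreated mutant libraries. It measured 2.43 CPM in wild type oxLDL and 13.5 CPM in untreated wild type. Both mutant libraries stood above the wild-type library under either treatment. The fall with oxLDL was -2.34 ± 0.22 in the mutant (SE, n = 2 each; edgeR adjusted p = 0.00116) and -2.38 ± 0.18 across genotypes (adjusted p = 0.000250).

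Gbp5, known in mouse macrophages as a promoter of inflammasome assembly, was the least expressed of the 4. Its level was 0.285 and 0.248 CPM in mutant oxLDL libraries, against 6.40 and 4.72 CPM in untreated mutant libraries, and wild type measured 0.128 CPM with oxLDL and 4.66 CPM without. The oxLDL values rest on 7 and 4.53 expected counts in the mutant and 2 in wild type. On the log2 scale Gbp5 fell by -4.35 ± 0.38 in the mutant (SE, n = 2 each; edgeR adjusted p = 0.000902) and -4.52 ± 0.33 across genotypes (adjusted p = 0.000238).

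Gbp7, reported to help assemble the phagocyte NADPH oxidase and to bind autophagy factors, measured 5.58 and 6.80 CPM in mutant oxLDL libraries, against 28.1 and 23.4 CPM in untreated mutant libraries. It measured 3.52 CPM in wild type oxLDL and 27.1 CPM in untreated wild type. With oxLDL the wild-type library was the lowest, and without it that library lay between the mutant ones. On the log2 scale Gbp7 fell by -2.07 ± 0.18 in the mutant (SE, n = 2 each; edgeR adjusted p = 0.000864) and -2.34 ± 0.21 across genotypes (adjusted p = 0.000482).

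In wild type alone, with 1 library per arm and so no test, all 9 genes were at least 2-fold lower with oxLDL, as were 13.3% of tested genes. The untreated level exceeded the oxLDL level 3.14-fold for Irgm1 (95% exact counting interval 2.93 to 3.37) and 7.73-fold for Irgm2 (6.98 to 8.58). It was 5.42-fold for Igtp (4.66 to 6.32), 6.67-fold for Ifi47 (5.58 to 8.03) and 5.53-fold for Gbp3 (3.93 to 8.0). For Gbp2 the ratio was 4.09 (3.33 to 5.07) and for Gbp7 it was 7.69 (5.82 to 10.3). Iigp1 had 3 counts and Gbp5 had 2 counts in the oxLDL library, so their ratios of 162 (55.0 to 785) and 36.4 (9.79 to 305) are loose. The intervals cover counting error only.

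**Figure D3:**
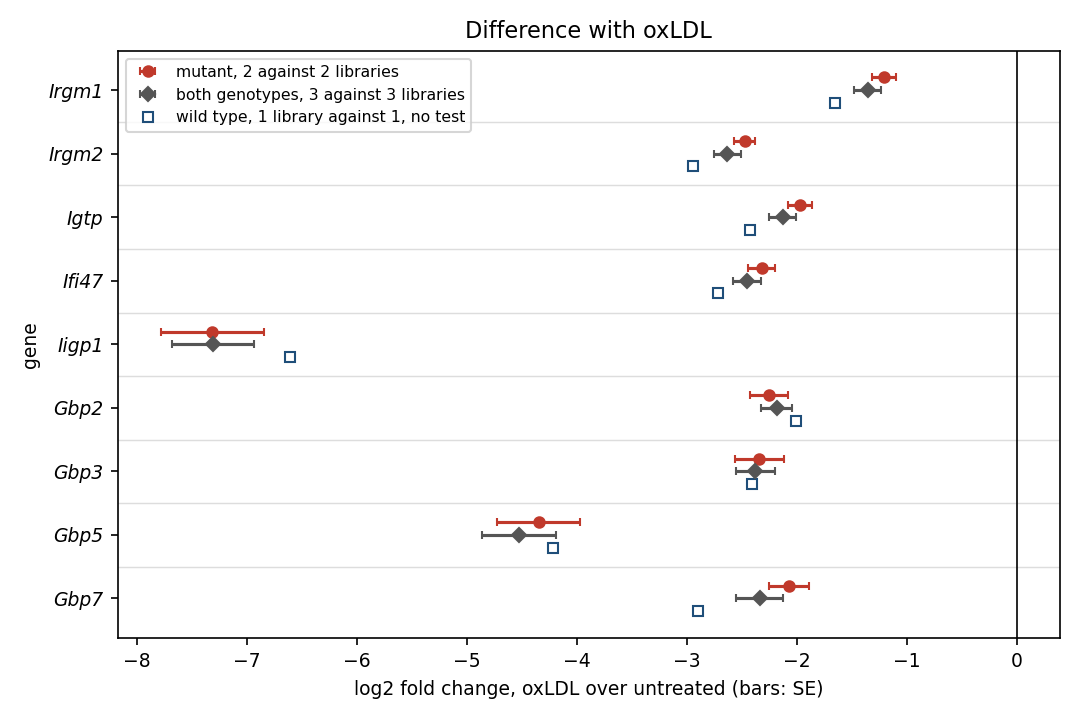
log2 fold change of oxLDL over untreated for each gene in the mutant (circles), across genotypes (diamonds) and in the single wild-type pair (open squares, no test), with SE bars. All values lie left of 0, with Irgm1 nearest to it and Iigp1 and Gbp5 farthest.

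Levels between genes can be set side by side only per length, here per kilobase of the longest coding transcript. Irgm1 had the highest level in every library, at 30.4, 29.1 and 28.8 CPM per kilobase with oxLDL, against 73.4, 62.7 and 90.6 without. It made up 59.3%, 56.8% and 55.6% of the summed per-kilobase level of the 9 genes in the oxLDL libraries, against 37.8%, 36.8% and 36.6% in the untreated ones. Iigp1 made up 0.204%, 0.0311% and 0.119% with oxLDL, against 6.40%, 4.98% and 4.02% without. Among untreated libraries Irgm1 was followed by Irgm2 at 33.8, 31.6 and 57.4 CPM per kilobase. Within each library Irgm2 stood above Ifi47 (24.0, 22.0 and 32.8) and Igtp (20.8, 19.8 and 34.0), though the ranges overlapped between libraries. The order of Igtp and Ifi47 was not the same in mutant and wild type. Gbp2 (15.9, 12.7 and 11.5) stood above Iigp1 (12.4, 8.48 and 9.94) within each library, though their ranges overlapped between libraries. Gbp5 was lowest of the 9 in all 3 untreated libraries, at 2.09, 1.54 and 1.53.

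Markers of other cells also moved with oxLDL. The summed level of 7 dendritic cell markers was 2.0, 2.43 and 1.66 CPM in oxLDL libraries, against 4.03, 5.56 and 6.04 CPM in untreated ones, most of it Xcr1, while Flt3 and Cd209a were at 0 in 5 of 6 libraries. The summed level of 6 endothelial markers was 331, 287 and 142 CPM with oxLDL, against 103, 81.5 and 68.1 CPM without, with Vwf and Kdr higher, Pecam1 and Cdh5 lower and Cldn5 at 0 throughout. Of the 8 macrophage markers, 4 fell and 2 rose across genotypes, where 21.4% of all tested genes fell and 19.1% rose. Fcgr1, the high-affinity IgG receptor, fell most of them, by -3.27 ± 0.18 (edgeR adjusted p = 0.000109). The part of these shifts in the GTPase result was not tested.

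Between genotypes the differences were smaller, and 2 of the 9 genes passed the test in untreated cells. In untreated cells both mutant libraries were below the wild-type library for the 3 Irgm regulators and Ifi47, and above it for Gbp2, Gbp3 and Gbp5, while Iigp1 and Gbp7 straddled it. Over all tested genes 43.4% had both mutant libraries below wild type and 38.0% had both above, so these counts of 4 and 3 of 9 are near the background. Both called genes were lower in the mutant, where 7.06% of all tested genes were called, 2.82% lower and 4.24% higher. They were Irgm2, at -0.80 ± 0.11 on the log2 scale (SE, 2 mutant libraries and 1 wild type; edgeR adjusted p = 0.0224), and Igtp, at -0.73 ± 0.12 (adjusted p = 0.0303). Neither call passed with mutant untreated replicate 1 left out (adjusted p = 0.0760 and 0.104) or with replicate 2 left out (0.0580 and 0.102), and over all alternatives the adjusted p ran from 8.08e-05 to 0.0760 for Irgm2 and from 0.00105 to 0.104 for Igtp. Leaving out single libraries moved the count of all genes called between 80 and 1822, from 896 with all.

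The other 7 did not pass in untreated cells. On the log2 scale Ifi47 differed by -0.50 ± 0.14 (edgeR adjusted p = 0.0808) and Irgm1 by -0.40 ± 0.13 (adjusted p = 0.114). The guanylate-binding proteins had values of 0.33 ± 0.20 for Gbp2, 0.53 ± 0.26 for Gbp3, 0.26 ± 0.35 for Gbp5 and -0.06 ± 0.20 for Gbp7, and Iigp1 had 0.08 ± 0.35. None of these directions is settled by the test.

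The untreated wild-type library, on which this comparison turns, also held transcripts of other cells. The summed level of 7 neutrophil markers was 0.701 and 1.62 CPM in untreated mutant libraries, against 27.0 CPM in untreated wild type, where S100a9 and Ltf made up most of it. The summed level of 8 pancreas markers was 0 and 0.0704 CPM in untreated mutant libraries, against 219 CPM in untreated wild type, and it was 163 and 129 CPM in mutant oxLDL libraries, against 0 in wild type oxLDL. Their part in the genotype differences was not tested.

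With oxLDL, 0 of 9 genes passed between genotypes by edgeR and 0 by DESeq2, where 0.481% of all tested genes were called in either direction by edgeR. At an unadjusted p under 0.05 by edgeR stood 2 of the 9, and 14.3% of all tested genes. These were Gbp7, at 0.81 ± 0.25 on the log2 scale (adjusted p = 0.235), and Irgm2, at -0.32 ± 0.12 (adjusted p = 0.297). The other values were -0.27 ± 0.13 for Igtp, -0.08 ± 0.16 for Ifi47, 0.04 ± 0.13 for Irgm1, 0.05 ± 1.18 for Iigp1, 0.10 ± 0.22 for Gbp2, 0.65 ± 0.31 for Gbp3 and 1.02 ± 0.80 for Gbp5. Both mutant libraries were below wild type for Irgm2, Igtp and Ifi47 and above it for Irgm1, Gbp3, Gbp5 and Gbp7, while 37.2% of all genes had both below and 39.2% had both above. Across treatments, with 4 mutant against 2 wild-type libraries, 0 of 9 passed by edgeR and 2 by DESeq2, where edgeR called 4.05% of all tested genes, 1.51% lower and 2.54% higher. DESeq2 called 1513 genes in that comparison, against 514 by edgeR, so its 2 calls have a larger background. At an unadjusted p under 0.05 by edgeR stood 4 of the 9, and 24.4% of all tested genes. The log2 difference of Irgm2 was -0.58 ± 0.12 (edgeR adjusted p = 0.0533, DESeq2 adjusted p = 0.00298), and that of Igtp was -0.52 ± 0.13 (edgeR adjusted p = 0.0711, DESeq2 adjusted p = 0.0207). For Gbp3 the value was 0.58 ± 0.19 (edgeR adjusted p = 0.133) and for Ifi47 it was -0.32 ± 0.13 (adjusted p = 0.198). The rest measured -0.19 ± 0.13 for Irgm1, 0.08 ± 0.33 for Iigp1, 0.23 ± 0.15 for Gbp2, 0.41 ± 0.33 for Gbp5 and 0.29 ± 0.22 for Gbp7.

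**Figure D4:**
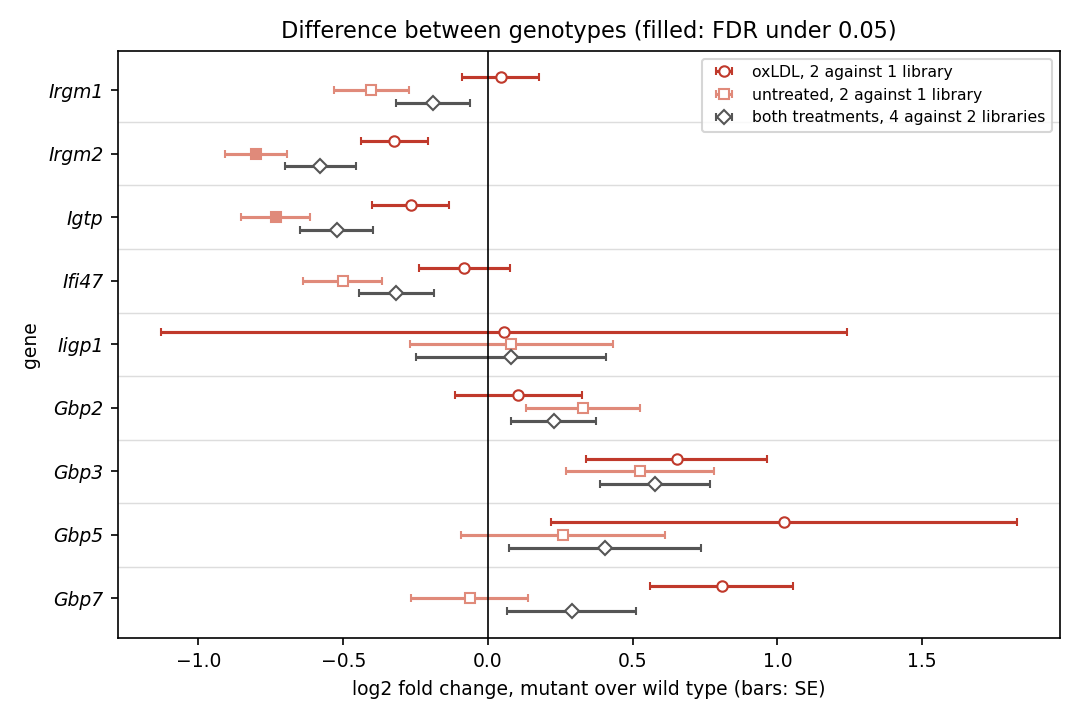
log2 fold change of mutant over wild type for each gene with oxLDL (circles), untreated (squares) and across treatments (diamonds), with SE bars and filled symbols for calls at a false discovery rate under 0.05. The only filled symbols are those of Irgm2 (-0.80) and Igtp (-0.73) in untreated cells.

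Whether the fall with oxLDL differed between genotypes was tested with the interaction, the oxLDL change in the mutant minus that in wild type. Of the 9 genes 0 passed by edgeR and 0 by DESeq2, where 0.489% of all tested genes were called by edgeR. At an unadjusted p under 0.05 by edgeR stood 3 of the 9, and 11% of all tested genes. These 3 were Irgm2 at 0.48 ± 0.16 (adjusted p = 0.383), Igtp at 0.47 ± 0.18 (adjusted p = 0.434) and Gbp7 at 0.87 ± 0.32 (adjusted p = 0.416), each with the smaller fall in the mutant. The value for Iigp1 was -0.03 ± 1.41, an error so wide that the comparison carries little for that gene. For the others it was 0.45 ± 0.19 for Irgm1, 0.42 ± 0.21 for Ifi47, -0.22 ± 0.29 for Gbp2, 0.13 ± 0.40 for Gbp3 and 0.76 ± 0.88 for Gbp5.

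Related GTPases were counted from a list of 16, of which 15 were analysed and 11 passed the filter. Beside guanylate-binding and IRG genes the list holds the dynamin-like Mx1 and Mx2 and the very large GTPase Gvin1. Across genotypes 8 fell with oxLDL, Mx1, Mx2 and Gvin1 among them, and 1 rose, with a median log2 fold change of -3.21 over the 11. Over all tested genes 21.4% fell and 19.1% rose. Mx1 and Mx2, the dynamin-like antiviral GTPases, fell by -4.59 ± 0.24 (edgeR adjusted p = 0.000105) and -4.44 ± 0.26 (adjusted p = 0.000124). Gbp6 fell by -2.36 ± 0.13 (adjusted p = 0.000119) and the effector IRG Tgtp2 by -4.14 ± 0.24 (adjusted p = 0.000123), but 67.3% and 81.4% of their stretches occur in other genes, so their counts are uncertain. The same holds for Gvin1, with 98.3% of its stretches in other genes. The riser was Irgq, an IRG relative without the usual GTPase motifs, at 0.30 ± 0.10 (adjusted p = 0.0446). In the mutant alone 9 of the 11 fell and 2 rose, Irgq and Gbp8, where 19.1% of all tested genes fell and 16.5% rose. Gbp4, at 0.0815 and 0.149 CPM in mutant oxLDL libraries, and Tgtp1, at 0 and 0.0993 CPM, passed the filter through untreated levels. For them a fall was the only direction open, so their calls add little to the 9. Gbp4 is also among the 8 that fell across genotypes. Of the stretches of Tgtp1, 77.2% occur in other genes. Irgq, Gbp8, Gbp4 and Tgtp1 were named after their values were seen. Gbp8 measured 18.1 and 15.2 CPM in mutant oxLDL libraries, against 5.52 and 3.03 CPM in untreated mutant libraries, and 8.45 CPM in wild type oxLDL, against 9.93 CPM in untreated wild type.

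Upstream of these genes, 4 of 6 tested interferon receptor genes fell across genotypes and 0 rose, where 21.4% of all tested genes fell and 19.1% rose. In the mutant alone 2 of the 6 fell, where 19.1% of all tested genes fell. Ifngr1, the ligand-binding chain of the interferon-gamma receptor, measured 97.4 and 99.0 CPM in mutant oxLDL libraries, against 212 and 194 CPM in untreated mutant libraries, and 137 CPM in wild type oxLDL, against 237 CPM in untreated wild type. It fell by -0.97 ± 0.09 (edgeR adjusted p = 0.000552). Smaller falls were those of Ifnar1 at -0.41 ± 0.09 (adjusted p = 0.0142) and Ifngr2 at -0.37 ± 0.09 (adjusted p = 0.0188), and the scarce Ifnlr1 fell by -2.20 ± 0.70 (adjusted p = 0.0466). Of the ligands, Ifng and Ifna4 had 0 counts in all 6 libraries, which allows up to 0.122 to 0.263 CPM each depending on the library, and Ifnb1 was counted in 1 untreated mutant library only.

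Among the kinases and transcription factors 9 of 13 fell and 0 rose across genotypes, with a median log2 fold change of -0.64. Over all tested genes 21.4% fell and 19.1% rose. In the mutant alone 8 of the 13 fell and 1 rose, where 19.1% of all tested genes fell and 16.5% rose. The riser was Jak1, at 0.40 ± 0.10 (edgeR adjusted p = 0.0247), named after its value was seen. Irf7, the factor that amplifies type I interferon responses, measured 10.8 and 8.19 CPM in mutant oxLDL libraries, against 167 and 143 CPM in untreated mutant libraries, and 26.3 CPM in wild type oxLDL, against 388 CPM in untreated wild type. Irf7 fell by -3.98 ± 0.14 (edgeR adjusted p = 5.58e-05). Stat2 and Irf9, which act together in the type I response, fell too, Stat2 by -2.01 ± 0.13 (adjusted p = 0.000150) and Irf9 by -1.64 ± 0.09 (adjusted p = 0.000107). Irf7 was also lower in the mutant than in wild type across treatments, at -1.38 ± 0.13 (edgeR adjusted p = 0.0122), where 1.51% of all tested genes were called lower. Against the single wild-type library of each treatment the value was -1.31 ± 0.17 in untreated cells and -1.46 ± 0.19 with oxLDL, and the latter did not pass.

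**Figure D5:**
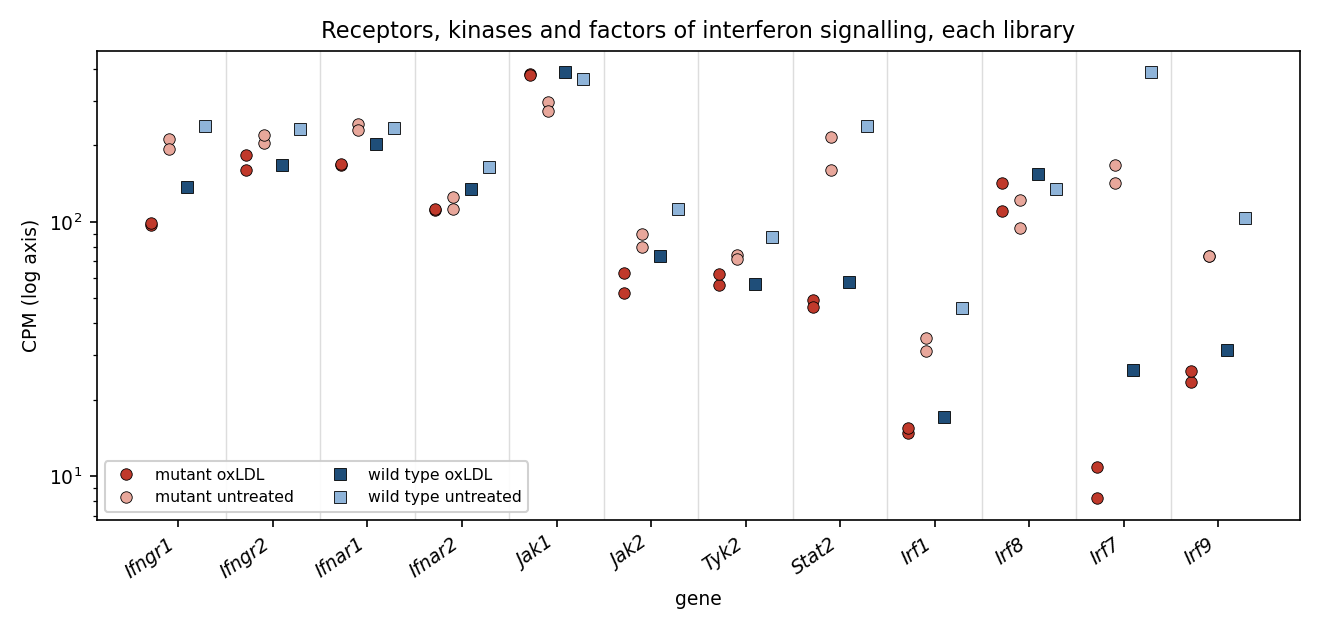
Level in CPM (log axis) of 12 receptor, kinase and transcription factor genes of interferon signalling, with a point for each of the 6 libraries. The oxLDL points of Stat2, Irf7 and Irf9 lie below all untreated points, while those of Irf8 and Ifnar2 lie among or close to them. Those of Jak1 lie above all untreated points of that gene.

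The feedback inhibitors of interferon signalling had 5 of 8 genes lower and 0 higher across genotypes, where 21.4% of all tested genes were lower and 19.1% higher. The phosphatase Ptpn6 (SHP-1) fell by -1.92 ± 0.10 (edgeR adjusted p = 0.000105), the ubiquitin-like modifier Isg15 by -3.43 ± 0.22 (adjusted p = 0.000160), Socs3 by -3.37 ± 0.28 (adjusted p = 0.000329) and the SUMO ligase Pias1 by -0.57 ± 0.07 (adjusted p = 0.00168). Of 13 other genes that interferon-gamma induces in macrophages, 10 fell and 0 rose, beside the same shares of all tested genes. Of the 10, Ciita, Nos2, Cxcl9 and Cxcl10 measured at most 0.248 CPM in any oxLDL library and passed the filter through untreated levels. For them a fall was the only direction open, so their calls add little to the count of 10. Ciita, Nos2 and Cxcl9 were named after their values were seen. Cxcl10, a chemokine, measured 0.163 and 0 CPM in mutant oxLDL libraries, against 16.8 and 15.1 CPM in untreated mutant libraries, and 0 CPM in wild type oxLDL, against 3.02 CPM in untreated wild type. It fell by -7.46 ± 0.53 (adjusted p = 0.000221), a size that rests on few counts. Slfn2 fell by -1.67 ± 0.11 (adjusted p = 0.000168), and 2 genes of antigen processing fell as well, Psmb9 by -1.63 ± 0.13 (adjusted p = 0.000310) and Tap1 by -1.48 ± 0.13 (adjusted p = 0.000365).

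Of 12 genes of the ubiquitin-like conjugation system and of GTPase handling, which together guide IRG and guanylate-binding proteins onto membranes, 8 rose and 1 fell across genotypes, where 19.1% of all tested genes rose and 21.4% fell. Gabarapl1 rose by 1.55 ± 0.09 (edgeR adjusted p = 0.000124), with 20.5% of its stretches antisense to another gene, and the conjugation enzymes Atg7, Atg5 and Atg12 rose by 0.58 ± 0.09, 0.50 ± 0.09 and 0.49 ± 0.10 (adjusted p = 0.00378, 0.00638 and 0.00808). In the mutant alone 6 of the 12 rose, 0 fell and 6 were not called, where 16.5% of all tested genes rose. Of 7 genes of prenylation, the lipid attachment that Gbp2 and Gbp5 use, 2 rose and 2 fell, numbers near the same background shares. Ggps1, which makes the geranylgeranyl group, rose by 0.64 ± 0.09 (adjusted p = 0.00255) and the methyltransferase Icmt by 0.54 ± 0.09 (adjusted p = 0.00505), while Pggt1b, a subunit that attaches the group, fell by -0.96 ± 0.15 (adjusted p = 0.00386). Fdps fell by -1.29 ± 0.12 (adjusted p = 0.000572), with 23.5% of its stretches found in other genes.

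Among 11 tested partners on pathogen vacuoles and in the inflammasome, 6 fell and 3 rose across genotypes, where 21.4% of all tested genes fell and 19.1% rose. The adaptor Sqstm1 (p62) rose by 2.06 ± 0.14 (edgeR adjusted p = 0.000176), whereas the ubiquitin ligase Trim21 fell by -1.41 ± 0.12 (adjusted p = 0.000338). The inflammasome adaptor Pycard (ASC) fell by -1.44 ± 0.14 (adjusted p = 0.000611) and Casp4, the lipopolysaccharide-sensing caspase, by -1.18 ± 0.12 (adjusted p = 0.000648). Of the stretches of Sqstm1 14.6%, and of those of Pycard 10.9%, are antisense to other genes, and the strand setting of the counting is not given.

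The genes whose pattern over the 6 libraries was nearest to the members' mean were found by the root mean square difference of centred log2 CPM, given here without a test. Oas1g was nearest at 0.14, although 36.9% of its stretches occur in other genes, followed by F11r at 0.16, Ddx58 at 0.18, Tlr2 at 0.18, Ptgs1 at 0.21 and Gm13710 at 0.22. Oas1g measured 7.78 and 8.24 CPM in mutant oxLDL libraries, against 58.6 and 55.0 CPM in untreated mutant libraries, and 8.32 CPM in wild type oxLDL, against 79.8 CPM in untreated wild type. Of the members themselves, Ifi47 at 0.28 and Irgm2 at 0.30 lay nearest to their own mean, and Irgm1 at 0.79 and Iigp1 at 2.03 farthest.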

How the data were processed

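RNA of 6 macrophage libraries was made from 250 ng with a stranded polyA kit and read as 150 bp pairs. Per gene, the authors deposited expected counts (RSEM), made with Bowtie2 2.1.0 and RSEM 1.2.15 per the submitters' processing notes. A second deposited table holds a normalised signal for each gene. Its name gives TMM scaling (trimmed mean of M-values) and the submitters' processing notes name edgeR. The notes name the human build hg19 while the table holds mouse symbols, so the genome build and strand setting used for counting are not given in the sources. Whole reads recovered from the signal came out whole for 100% of values (tolerance 1e-06) and equalled the rounded counts for at least 99.89% of genes per library.

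Expected counts were rounded. Genes passing filterByExpr were tested with edgeR 4.0.16 (R 4.3.3): TMM factors, quasi-likelihood F-test, Benjamini-Hochberg adjustment over 12689 genes, called at a false discovery rate under 0.05. From 4 group means came the contrasts of oxLDL within the mutant, of genotype within each treatment and their interaction, and an additive model gave oxLDL across genotypes and genotype across treatments. Single wild-type libraries were assumed to vary like the mutant pairs. An SE is the size of the log2 fold change divided by the square root of F, and is approximate. Wild type alone was described with exact Poisson-ratio intervals at 95%. CPM are counts scaled by library total and TMM factor, within 0.0259% of the deposited values for the genes described. The variance between replicates was 5.93 (mutant oxLDL) and 3.92 (mutant untreated) times Poisson at the median, so no pair is a library given in duplicate. The scripts were tested on simulated data.

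All 9 members are named in every comparison, with the levels of Fermt3, up to 4 genes of smallest p in oxLDL across genotypes from each pathway list, and the 6 genes most like the members. A gene that this rule names is not reported here. Members and lists were chosen with earlier results of these data known. Transcript lengths and shared 75-base stretches came from GENCODE M21, start windows and gene order from RefSeq GRCm38.p6. Protein sequences were not used here. Alternatives used DESeq2 1.42.0, limma 3.58.1, other factors, no filter, left-out libraries, a replicate block and the recovered reads.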

Additional observations from a re-analysis of the deposited data

How the results depend on the processing

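The fall of all 9 genes with oxLDL held its direction and its call under every alternative that was run, in the mutant and across genotypes, and all 9 stayed at least 2-fold lower in wild type. On the log2(signal + 1) scale of limma, whose pseudocount shrinks low genes, the mutant values were -4.81 for Iigp1 and -2.36 for Gbp5. Between genotypes the calls depended on the setting. Members called lower across treatments numbered 0, but 2 with DESeq2, 2 without a filter on low counts and 0 to 2 when single libraries were left out, where the 2 came without wild type oxLDL. Without that library the adjusted p was 0.0222 for Irgm2 and 0.0301 for Igtp, and without the filter it was 0.0108 and 0.0294. Members called lower in untreated cells numbered 2, but 4 without the filter (Irgm1 and Ifi47 added, adjusted p = 0.0499 and 0.0345) and 0 to 2 with libraries left out. Where a left-out library leaves a lone sample in a group, that sample is assumed to vary like the others.

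Over all genes, calls for genotype across treatments numbered 514, but 1513 with DESeq2, 1387 without the filter and 8 to 877 with libraries left out. Calls for genotype in untreated cells numbered 896, but 2435 without the filter, 1870 with the replicate block and 80 to 1822 with libraries left out. With oxLDL they numbered 61, but 391 with DESeq2, 974 without the filter, 462 with the replicate block and 5 to 473 with libraries left out. For the interaction they numbered 62, but 221 with DESeq2, 546 without the filter, 162 with the replicate block and 19 to 246 with libraries left out. For oxLDL in the mutant they numbered 4515, and 2626 to 4529 with libraries left out. The replicate block changed no call of a member. Deviations of same-numbered mutant libraries correlated at 0.218 over 12689 genes in the only 2 pairs, and the labels do not say that a number marks a shared mouse or day.

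Signs turned in uncalled values only, when a library was left out. For genotype across treatments the left-out values ran from -0.19 (without mutant untreated replicate 1) to 0.29 for Iigp1, from -0.065 (without wild type oxLDL) to 0.81 for Gbp7 and from -0.41 to 0.049 (without untreated wild type) for Irgm1. In untreated cells they ran from -0.23 (without mutant untreated replicate 1) to 0.33 for Iigp1 and from -0.21 to 0.062 (without replicate 2) for Gbp7. With oxLDL they ran from -1.80 (without mutant oxLDL replicate 1) to 0.75 for Iigp1 and from -0.0029 (without replicate 2) to 0.22 for Gbp2. For the interaction they ran from -1.88 to 0.66 (without mutant oxLDL replicate 2) for Iigp1, which was also positive at 0.29 without mutant untreated replicate 1, and from -0.17 (without mutant oxLDL replicate 2) to 0.38 for Gbp3. The cause was not tested. Genotype and interaction fits that need a wild-type library could not be fitted without it. Counts of 1 to 8 limit Iigp1 and Gbp5 in oxLDL libraries.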
